A study of Mus musculus with 6 samples.

Results

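Mast cell and basophil genes were followed in sorted mouse DN1 thymocytes. The set holds 10 of the 24318 gene symbols in the tables: Tpsb2, Tpsab1, Cma1, Mcpt4, Cpa3, Mcpt8, Prss34, Ms4a2, Fcer1a and Hdc. Each was found by its symbol, and each had exactly 1 row in every library. RNA was sequenced from 3 WT libraries and 3 libraries labelled Tle134-deficient, all of them DN1 cells of mice 5 to 8 weeks old. The labels define DN1 as CD44+ cells that lack CD25, CD8a, TCRb and lineage markers. The strain, the alleles and any Cre driver behind the label, and the antibodies of the lineage mixture, are, in the sources used here, not given. Tle134 is read as Tle1, Tle3 and Tle4, corepressors of the Groucho/Tle family. Whether replicates were separate animals is not stated in the labels.

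Mast cells are tissue-resident cells whose granules hold tryptases, chymases and the carboxypeptidase Cpa3. Basophils are circulating cells with a smaller set of granule proteases, of which Mcpt8 and Prss34 are characteristic in the mouse. Both carry the high-affinity IgE receptor and make histamine with the enzyme Hdc. The 10 genes were chosen by what they are known for and with their FPKM in the same WT and Tle134-deficient comparison in view. Their levels are therefore given as a description. The test over all genes is reported for them, but nothing is read from it.

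The libraries as a whole set the frame for these values. FPKM counts fragments relative to transcript length and to the mapped fragments of the library, so levels of different genes can be set side by side. Tle1 was at 1.19 to 3.61 FPKM across WT and at 11.1 to 11.5 FPKM under the deficient label, Tle3 at 23.4 to 35.9 against 58.6 to 82.6 FPKM, and Tle4 at 14.5 to 18.8 against 17.8 to 35.2 FPKM. The targeted genes were thus no lower under the Tle134-deficient label, and the group is called labelled deficient throughout. A value over a whole locus also counts reads outside any deleted exons. The gate markers Ptprc (58.2 to 139 FPKM) and Cd44 (27.5 to 74.3 FPKM) were present in all 6 libraries. Of the excluded markers, Il2ra was at 1.69 to 7.36 FPKM, Cd8a at 0 to 2.48 FPKM and Cd8b1 at 0.690 to 10.1 FPKM. The deposited bounds imply about 1.42e+06 to 4.34e+06 fragments per library in loci with a gene symbol, with WT replicate 1 and labelled-deficient replicate 1 the shallowest. Labelled-deficient replicate 3 stood apart in markers of neutrophils and eosinophils, whose 14 genes summed to 4067 FPKM there and to 100.8 to 545 FPKM in the other libraries.

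The 10 genes lie on 6 chromosomes, and 6 of them sit in 2 protease clusters. All positions of the measured loci are mm9 and cover the whole gene with its exons and introns. Other listed loci overlapped those of Cpa3, Mcpt8, Ms4a2 and Hdc. They reached 347499 FPKM at Cpa3 in WT replicate 1 and 216449 FPKM at Cpa3 and Hdc in WT replicate 3. In labelled-deficient replicate 3 they reached 111387 FPKM at Cpa3 and Ms4a2, 122525 at Mcpt8 and 133664 at Hdc. Their effect on the values of these genes was not tested. Cma1 (chromosome 14, 56560288 to 56563498), Mcpt4 (56678581 to 56681147) and Mcpt8 (56701000 to 56704067) belong to the chymase cluster on chromosome 14. Prss34 (chromosome 17, 25435334 to 25437138), Tpsab1 (25480190 to 25482507) and Tpsb2 (25503264 to 25505037) belong to the tryptase cluster on chromosome 17. The lowest position of the locus was 20115515 of chromosome 3 for Cpa3 and 11690011 of chromosome 19 for Ms4a2. It was 175151402 of chromosome 1 for Fcer1a and 126419396 of chromosome 2 for Hdc. These genes lie on the minus strand, so the lowest position is at the 3′ end of each.

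The promoters of 6 of these genes are shown because the genes fall on both sides of the pattern described next: Cma1, Mcpt4 and Cpa3 were lower in every labelled-deficient library than in any WT library, whereas Mcpt8, Prss34 and Ms4a2 overlapped between the groups and were high in labelled-deficient replicate 3. Each line holds the 250 bases before the transcription start, 5′ to 3′ on the gene's strand, from RefSeq on GRCm38.p6, a later build than that of the measured loci. RefSeq promoters were matched for 8 of the 10 genes, all but Tpsb2 and Tpsab1. Capitals mark the letters AGATAA or TGATAA on either strand, the core bound by GATA factors.
Cma1 (chr14:55944676-55944925, minus strand): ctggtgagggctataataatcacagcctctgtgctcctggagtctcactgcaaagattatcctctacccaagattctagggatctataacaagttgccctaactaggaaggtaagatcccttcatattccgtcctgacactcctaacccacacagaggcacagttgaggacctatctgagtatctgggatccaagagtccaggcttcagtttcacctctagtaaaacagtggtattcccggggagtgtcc
Mcpt4 (chr14:56062311-56062560, minus strand): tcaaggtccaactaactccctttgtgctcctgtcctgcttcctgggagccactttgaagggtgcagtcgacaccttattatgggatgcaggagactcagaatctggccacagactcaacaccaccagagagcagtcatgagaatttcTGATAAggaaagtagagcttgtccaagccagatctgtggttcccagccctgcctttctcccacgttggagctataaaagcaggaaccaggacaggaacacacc
Cpa3 (chr3:20242182-20242431, minus strand): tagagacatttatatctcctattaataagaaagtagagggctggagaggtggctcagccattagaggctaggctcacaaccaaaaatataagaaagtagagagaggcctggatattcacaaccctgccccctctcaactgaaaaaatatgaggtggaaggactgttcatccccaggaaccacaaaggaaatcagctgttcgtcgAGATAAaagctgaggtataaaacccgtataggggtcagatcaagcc
Mcpt8 (chr14:56085198-56085447, minus strand): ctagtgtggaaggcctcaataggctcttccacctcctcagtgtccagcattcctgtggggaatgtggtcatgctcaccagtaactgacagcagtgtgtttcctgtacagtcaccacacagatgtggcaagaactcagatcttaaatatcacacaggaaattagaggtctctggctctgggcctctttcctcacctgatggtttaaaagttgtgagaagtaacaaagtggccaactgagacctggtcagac
Prss34 (chr17:25298144-25298393, plus strand): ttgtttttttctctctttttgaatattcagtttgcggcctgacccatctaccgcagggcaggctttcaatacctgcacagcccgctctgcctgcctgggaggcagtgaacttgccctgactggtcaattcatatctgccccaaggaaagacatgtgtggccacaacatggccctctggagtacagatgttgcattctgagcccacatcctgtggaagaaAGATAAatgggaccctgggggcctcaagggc
Ms4a2 (chr19:11623720-11623969, minus strand): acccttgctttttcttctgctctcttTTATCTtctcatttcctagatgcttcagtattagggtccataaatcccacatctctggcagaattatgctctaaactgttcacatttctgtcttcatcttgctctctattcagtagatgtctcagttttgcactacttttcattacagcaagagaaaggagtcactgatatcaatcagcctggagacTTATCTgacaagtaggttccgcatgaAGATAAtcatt

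The GATA letters were found in 5 of the 8 promoters, those of Mcpt4, Cpa3, Prss34, Ms4a2 and Fcer1a, and in 16.6% of 32851 RefSeq promoter windows of the same length. In Prss34 they began 31 bases before the start, in Cpa3 46 and in Mcpt4 103 bases before it, and Ms4a2 held 3 matches. The Runx letters TGTGGT stood in 4 of the 8 (Mcpt4, Cpa3, Mcpt8 and Fcer1a) against 14.05% of all windows. The E-box CATGTG, a form that Mitf can bind, stood in 2 (Prss34 and Fcer1a) against 12.3%. All were searched on both strands, and although CATGTG can overlap TGTGGT, no such overlap occurred in these promoters. The genes with a GATA match include members of both expression patterns.

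Tryptases and chymases of connective tissue mast cells were present in the WT libraries and at or near 0 in those labelled deficient. Tpsb2, the tryptase mMCP-6, was at 5.82, 3.66 and 17.5 FPKM across WT replicates 1 to 3 and was listed at 0 in all 3 labelled-deficient libraries. Cma1, the chymase mMCP-5, was at 9.59, 1.63 and 55.2 FPKM across WT and likewise listed at 0 in all 3. Mcpt4, the chymase mMCP-4, was at 21.8, 1.40 and 57.0 FPKM across WT against 0, 0 and 0.0921 FPKM. The groups did not overlap for any of these 3 genes, with WT replicate 3 the highest and WT replicate 2 the lowest. Tpsab1, the tryptase mMCP-7, was near the floor throughout, at 0, 0.364 and 2.14 FPKM across WT and listed at 0 in the labelled-deficient libraries, so WT replicate 1 did not differ from them. In these bulk samples, fewer cells of a type and less RNA per cell cannot be told apart.

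The deposited bounds show how few fragments lie behind the low values. If each bound lies 2 SD of a fragment count away, Mcpt4 in labelled-deficient replicate 3 rests on 1 fragment, whereas Mcpt4 in WT replicates 1 to 3 rests on about 97.1, 14.4 and 353 fragments. Tpsb2 rests on about 29.4, 47.2 and 119 fragments in WT. A listed 0 may be a failed estimate, which was not tested. Eif2a, a translation initiation factor, was listed at 0 in labelled-deficient replicates 1 and 2 and at 7.97 to 18.9 FPKM in the others. Of 11063 genes tested, 10 (0.0904%) were above 0 in every WT library and at 0 in every labelled-deficient library, and 11 (0.0994%) showed the reverse. Tpsb2, Cma1 and Mcpt2, another chymase, are among the 10. A gene listed at 0 in a whole group passes the filter through the other group alone. These genes were also picked with the comparison known, so nothing is read from their place among the 10. Windows of 50 bases that recur exactly in another gene's transcripts made up 0% of the Tpsb2 and Tpsab1 transcripts, 5.38% of Cma1 and 5.48% of Mcpt4 (GENCODE M21, longest transcript). Reads that match a near copy with mismatches were not examined.

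**Figure D1:**
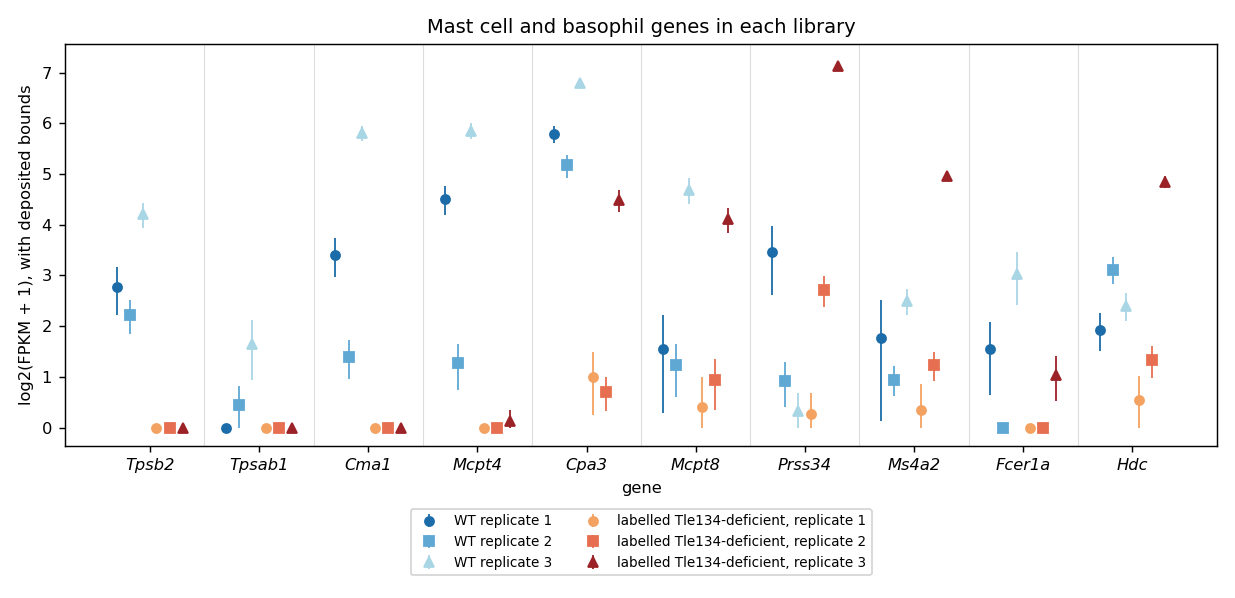
Level of each of the 10 genes in each library as log2(FPKM + 1), with bars spanning the deposited lower and upper bounds. The 4 mast cell proteases on the left sit at 0 in the labelled-deficient libraries (0.0921 FPKM for Mcpt4 in replicate 3), while Prss34, Ms4a2 and Hdc are highest in labelled-deficient replicate 3.

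Cpa3, the mast cell carboxypeptidase that basophils and some progenitors also transcribe, was the most abundant of the 10 genes in each WT library. It measured 54.4, 35.0 and 110 FPKM there, above 96.3% to 98.2% of the 23401 gene units. In the libraries labelled deficient it measured 0.992, 0.622 and 21.5 FPKM. The highest labelled-deficient value lay below the lowest WT value. The means were 66.5 ± 38.9 and 7.69 ± 11.9 FPKM (SD, n = 3 each), with a log2 difference of -3.86. Replicate 3 held 21.6 times the level of the next labelled-deficient library. Without it the difference was -5.07.

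The basophil proteases gave another picture. Prss34, the protease mMCP-11, was at 9.96, 0.893 and 0.247 FPKM across WT and at 0.205, 5.58 and 139 FPKM under the deficient label. Labelled-deficient replicate 3 was 13.9 times the highest WT library and above 98.7% of gene units, whereas replicate 1 was the lowest of all 6. Mcpt8, the protease mMCP-8 and a marker of mouse basophils, was at 1.94, 1.34 and 24.7 FPKM across WT against 0.331, 0.905 and 16.3 FPKM. It was high in replicate 3 of each group and low in the other 4 libraries. Prss34 and Mcpt8 did not rank the libraries alike: WT replicate 3 was the highest for Mcpt8 and the second lowest for Prss34. The bounds imply about 1187 fragments for Prss34 and 125 for Mcpt8 in labelled-deficient replicate 3, whereas Prss34 in WT replicate 3 rests on about 1.99.

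Both chains of the IgE receptor in the set were low except in a few libraries. Ms4a2, the beta chain, was at 2.42, 0.921 and 4.66 FPKM across WT and at 0.276, 1.36 and 30.1 FPKM under the deficient label. Labelled-deficient replicate 3 was 6.46 times the highest WT library, and the other 2 lay within or below the WT range. Fcer1a, the alpha chain that binds IgE, was at 1.91, 0 and 7.18 FPKM across WT against 0, 0 and 1.06 FPKM. Its highest library was WT replicate 3, and the groups overlapped. The 2 chains therefore differed in where they were highest.

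Hdc, the enzyme that makes histamine, was at 2.82, 7.66 and 4.29 FPKM across WT and at 0.467, 1.52 and 27.9 FPKM under the deficient label. Replicates 1 and 2 of the labelled-deficient group lay below all WT libraries, and replicate 3 lay 3.64 times above the highest of them. The means were 4.92 ± 2.48 and 9.96 ± 15.5 FPKM (SD, n = 3 each), a difference smaller than the spread within the labelled-deficient group. The same held for Prss34 (3.70 ± 5.43 and 48.1 ± 78.4 FPKM), Ms4a2 (2.67 ± 1.88 and 10.6 ± 16.9 FPKM) and Mcpt8 (9.32 ± 13.3 and 5.85 ± 9.06 FPKM). Without labelled-deficient replicate 3 the log2 difference was -1.54 for Hdc (-0.24 with it), -0.07 for Prss34 (1.81), -0.94 for Ms4a2 (0.44) and -1.82 for Mcpt8 (-0.67).

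Over the set, 9 genes passed the filter on low values (1 FPKM in at least 3 libraries), and Tpsab1 did not. Cma1, Mcpt4 and Tpsb2 passed through the WT libraries alone. Without overlap, 4 of the 9 were lower in the labelled-deficient group (Tpsb2, Cma1, Mcpt4 and Cpa3), beside 6.56% of all genes tested, and 0 were higher, beside 8.67%. By limma's test over all genes (adjusted p under 0.05) 0 of the 9 passed, beside 0.75% of all genes, and 4, all lower, had an unadjusted p under 0.05, beside 4.35% of all genes. In the same test the adjusted p of Tpsb2 was just above the threshold (0.05004), and 1 of the 9 passed in each of 4 alternatives: Tpsb2 with libraries scaled to the same median (0.0389) and with totals taken without loci over 10000 FPKM (0.0455), Mcpt4 without WT replicate 2 (0.0415) and Cpa3 without labelled-deficient replicate 3 (0.0335). The comparison was known when the set was drawn up, and Tpsb2, Cma1 and Mcpt4, passing the filter through WT alone, had to differ. Nothing is therefore read from these counts or p-values. The log2 difference was below 0 for 7 of the 9, beside 47.3% of all genes. The median was -1.18, beside 0.04 over all genes. Tpsb2 and Cma1, listed at 0 in a whole group, have differences that the pseudocount sets, and without them the median of the other 7 was -0.67. Mcpt4 stayed among these 7, although its difference depended on the pseudocount too (-6.63 with 0.1 and -2.13 with 5). Leaving out WT replicate 3 gave a median of the 9 of -0.42, leaving out WT replicate 2 gave -1.94, and leaving out labelled-deficient replicate 3 gave -1.82. The 7 without Tpsb2 and Cma1 had a median of 0.03 without labelled-deficient replicate 1. Of the 10 genes, WT replicate 3 was the highest library for 7 and labelled-deficient replicate 3 for the other 3. Those libraries were also the highest for 28.6% and 20.3% of all genes tested.

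The make-up of the summed level differed between libraries, as did the sum. The 10 genes summed to 111, 52.9 and 283 FPKM across WT and to 2.27, 9.99 and 235 FPKM under the deficient label, so labelled-deficient replicate 3 lay within the WT range. Tpsb2, Tpsab1, Cma1 and Mcpt4 together made up 33.6%, 13.3% and 46.6% of that sum in WT and 0%, 0% and 0.0391% under the deficient label. Mcpt8 and Prss34 made up 10.8%, 4.22% and 8.82% in WT against 23.6%, 65.0% and 65.8%. Ms4a2 and Fcer1a made up 1.74% to 4.19% in WT against 12.2% to 13.6%. Cpa3 made up 49.2%, 66.2% and 38.9% against 43.7%, 6.23% and 9.11%, and Hdc 2.55%, 14.5% and 1.52% against 20.5%, 15.2% and 11.8%, so the Cpa3 shares overlapped. The shares add to a whole, so that a smaller share of one role raises the others: in labelled-deficient replicate 1 the basophil share was above every WT share while its 0.536 FPKM lay below every WT library. In labelled-deficient replicate 1 the sum rests on few fragments, about 1 each for Mcpt8 and Prss34 and 6 for Cpa3, so its shares are imprecise.

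**Figure D2:**
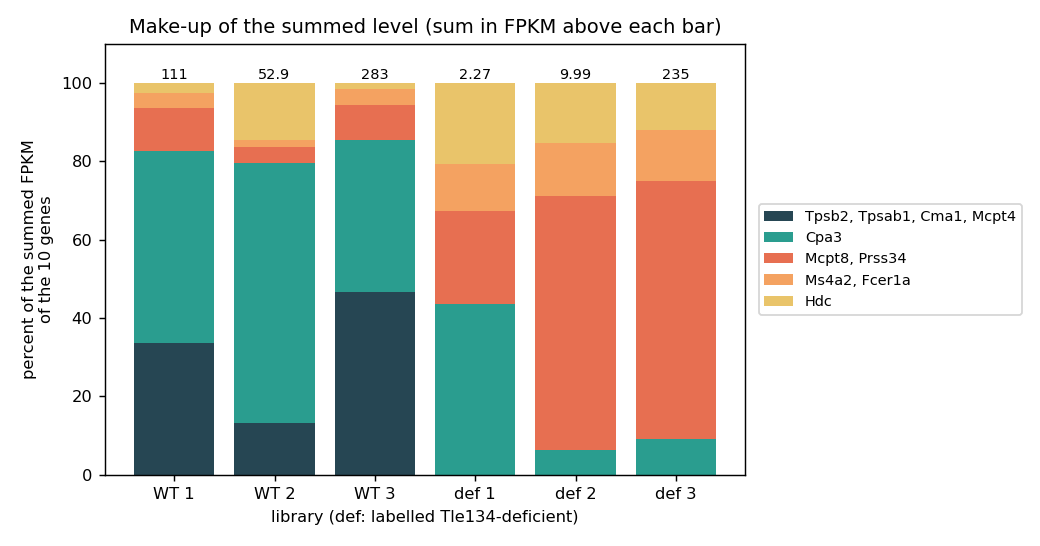
Share of the summed FPKM of the 10 genes held by each role, per library, with the sum in FPKM above each bar. The 4 mast cell proteases hold 13.3% to 46.6% in WT and at most 0.0391% under the deficient label, where Mcpt8 and Prss34 hold 23.6% to 65.8%.

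In FPKM, the 4 mast cell proteases summed to 37.2, 7.06 and 132 in WT and to 0, 0 and 0.0921 under the deficient label. The 2 basophil proteases summed to 11.9, 2.23 and 24.9 against 0.536, 6.49 and 155. The order of the WT libraries was the same for both sums. In the labelled-deficient group the basophil sum spanned a wide range while the mast cell sum stayed at or near 0.

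**Figure D3:**
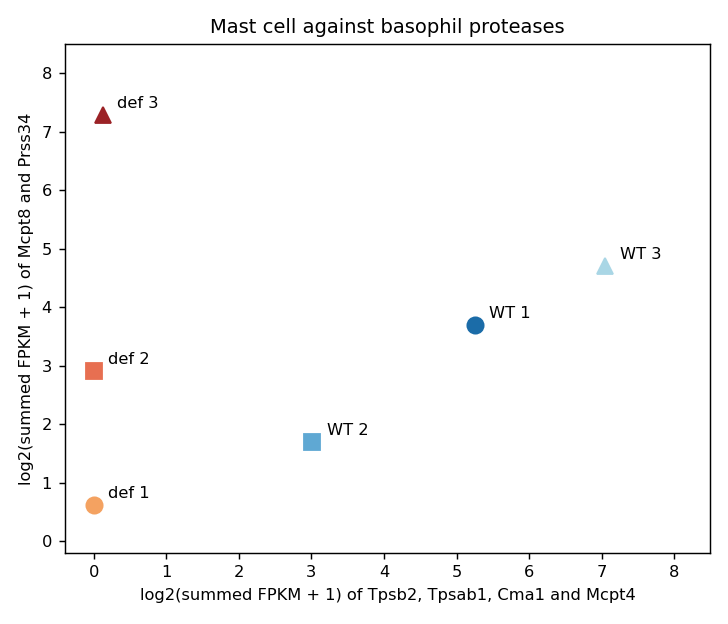
Summed level of Mcpt8 and Prss34 (vertical axis) against that of Tpsb2, Tpsab1, Cma1 and Mcpt4 (horizontal axis), each as log2(summed FPKM + 1), 1 point per library. The 3 labelled-deficient libraries lie along the left edge, at mast cell sums of 0, 0 and 0.0921 FPKM, and the 3 WT libraries run from 7.06 to 132 FPKM.

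The neighbours of these genes in the 2 clusters did not all follow them. In the chymase cluster, Mcpt1 and Mcpt2, chymases of mucosal mast cells, were at 12.3, 0 and 45.6 FPKM and at 38.3, 3.39 and 65.1 FPKM across WT. Both were listed at 0 in the 3 labelled-deficient libraries, without overlap for Mcpt2 and with overlap for Mcpt1, which was at 0 in WT replicate 2 too. Cma2 was at 5.21 and 1.05 FPKM across WT replicates 1 and 2 and listed at 0 in the other 4. Past Mcpt8, the order changed: Ctsg, the cathepsin G gene of neutrophils, monocytes and some mast cells, was at 9.63, 18.5 and 87.3 FPKM across WT against 1.83, 20.0 and 146 FPKM. Gzmb, a granzyme of cytotoxic lymphocytes and of basophils and mast cells, was at 2.39, 8.06 and 9.36 FPKM against 15.0, 12.1 and 118 FPKM. Gm5801, a predicted gene between Cma2 and Mcpt1, was listed in every library, at 11.4 to 20.6 FPKM, so fragments were assigned to this stretch in all 6. In the tryptase cluster, Prss34 at its edge was the only gene above 5 FPKM in a labelled-deficient library. Its neighbours Prss28 (5.54, 0 and 0 FPKM across WT against 0, 0 and 1.30 FPKM) and Prss29 (0 in all WT libraries against 0.425, 0 and 0 FPKM) overlapped between the groups. The clusters were chosen for display after the values were seen.

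**Figure D4:**
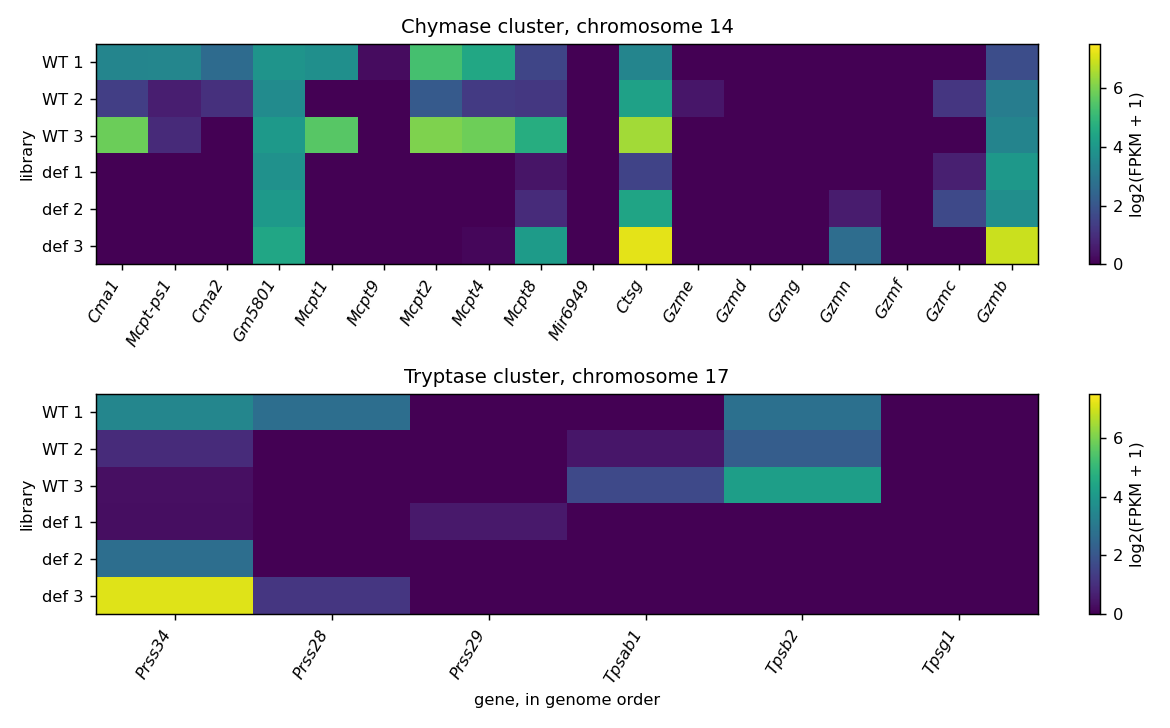
Levels as log2(FPKM + 1) of the genes of the chymase cluster (upper panel, Cma1 to Gzmb) and the tryptase cluster (lower panel, Prss34 to Tpsg1) in genome order, 1 row per library. The chymase genes from Cma1 to Mcpt4 other than Gm5801 are dark in the labelled-deficient rows, with 0.0921 FPKM for Mcpt4 in replicate 3 as their only value above 0, while Mcpt8, Ctsg and Gzmb are bright in the row of replicate 3.

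Other genes of mast cells and basophils were taken from a list of 43 that leaves out the 10. The list, too, was drawn up with earlier results of these data known, so its counts are a description. Of these 43, 4 share a locus with another gene and were set aside, and 26 of the remaining 39 passed the filter. By limma's test over all genes 1 of the 26 rose, beside 0.642% of all genes, and 0 fell, beside 0.108%. At an unadjusted p under 0.05 there were 4 of 26 lower, beside 4.35% of all genes, and 1 higher, beside 5.68%. The differences were below 0 for 15 and above 0 for 11, with a median of -0.32, beside 0.04 over all genes. Beyond the genes past the threshold and the 2 with the smallest adjusted p in each role, those of the list that are named were chosen after their values were seen.

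The gene that rose was Syk, the kinase that the IgE receptor activates and that the B-cell receptor uses too. It was at 11.03, 27.2 and 16.2 FPKM across WT and at 134, 125 and 89.2 FPKM under the deficient label, with no overlap. The log2 difference was 2.68 ± 0.46 (SE, limma adjusted p = 0.0353). The call was lost when any of the 6 libraries was left out (limma adjusted p = 0.0506 to 0.173). It was also lost under quantile normalization (0.0569), with plain empirical Bayes (0.0501), with totals taken without loci over 10000 FPKM (0.0694), without a filter (0.0936) and with the replicate number as a block (0.0738). The summed level of 9 B-cell markers, Cd79a and Cd79b among them, moved the same way, from 63.9 to 122 FPKM across WT to 534 to 915 FPKM, and their part in the Syk result was not tested. Of the 6 signalling genes 5 had a difference above 0, whereas 47.3% of all genes tested were below 0. Their median was 1.09, beside 0.04 over all genes. Fcer1g, the signalling chain shared by several Fc receptors, was at 19.2, 8.61 and 42.9 FPKM against 29.2, 36.3 and 109 FPKM (limma adjusted p = 0.58).

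Among granule genes 0 of 3 tested passed (1, lower, at an unadjusted p under 0.05, limma, beside 4.35% of all genes). Mcpt2, whose groups did not overlap, had an adjusted p of 0.0574. It passed the filter on low values through the WT libraries alone, the only one of the 26 tested genes to pass through a single group, so it had to differ and its p supports nothing further. That p was under the threshold with a pseudocount of 0.1 (0.0385), with library totals taken without loci over 10000 FPKM (0.0436) and without WT replicate 2 (0.0342). Ndst2, an enzyme of heparin synthesis, was at 2.30 to 3.36 FPKM in all 6 libraries (adjusted p = 0.973). Slc18a2, the transporter that loads histamine into granules, was at 8.92 FPKM in labelled-deficient replicate 3 and listed at 0 in the other 5. Tpsg1, a membrane-bound tryptase, was listed at 0 in all 6 libraries.

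Of 6 surface genes tested, 0 passed the threshold (1, lower, at an unadjusted p under 0.05, limma, beside 4.35% of all genes). The difference was below 0 for all 6, beside 47.3% of all genes. Il1rl1, the IL-33 receptor of mast cells, basophils and group 2 innate lymphoid cells, was at 3.24, 2.73 and 4.18 FPKM across WT against 0.0799, 0.109 and 2.55 FPKM (adjusted p = 0.421). Cd200r3, a receptor of basophils and mast cells, was at 1.39, 0.859 and 6.17 FPKM against 0, 0 and 1.37 FPKM (adjusted p = 0.575). Kit, the stem cell factor receptor of mast cells and of early thymic progenitors, was at 31.8, 36.5 and 37.1 FPKM across WT against 9.09, 21.5 and 33.9 FPKM (limma adjusted p = 0.647). Labelled-deficient replicate 3 was inside the WT range for Kit and just below it for Il1rl1. Mrgprb2, a receptor restricted to connective tissue mast cells, was at 0.735, 0.171 and 0.397 FPKM across WT and listed at 0 in all 3 under the deficient label. It did not reach the filter. Of 3 surface genes set aside for a shared locus, 2 were higher without overlap, beside 8.67% of all genes tested. Csf2rb, the beta chain shared by the IL-3, IL-5 and GM-CSF receptors, was at 5.81 to 7.35 FPKM across WT against 7.53 to 15.1 FPKM. The adenosine receptor Adora3 was at 0.396, 0 and 0 FPKM against 0.661, 11.9 and 4.81 FPKM. The remaining gene, Csf2rb2, shares its locus with Csf2rb. It overlapped, at 7.47, 2.59 and 8.91 FPKM across WT against 1.73, 6.71 and 3.40 FPKM.

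Of the transcription factors, 0 of 4 tested passed (1, lower, at an unadjusted p under 0.05, limma, beside 4.35% of all genes). Mitf, a factor that mast cells require, was at 2.55, 2.77 and 2.40 FPKM across WT against 1.17, 0.824 and 0.217 FPKM, lowest in labelled-deficient replicate 3 and without overlap (limma adjusted p = 0.458). Gata2, required by both lineages, was at 9.92, 4.88 and 8.54 FPKM across WT against 0.0672, 1.04 and 32.3 FPKM (limma adjusted p = 0.859). Cebpa, a myeloid factor that favours the basophil fate, was at 0.0705, 2.33 and 5.75 FPKM against 3.36, 2.45 and 19.2 FPKM (adjusted p = 0.728). Gata1 was at 0, 0.603 and 1.10 FPKM against 0, 0 and 9.33 FPKM. In labelled-deficient replicate 3 Gata2, Gata1 and Cebpa were thus at their highest of the 6 libraries and Mitf at its lowest.

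Genes for lipid mediators and cytokines included 0 past the threshold of 7 tested (1, lower, at an unadjusted p under 0.05, limma, beside 4.35% of all genes). Ltc4s, leukotriene C4 synthase, was at 3.28, 13.9 and 12.8 FPKM across WT against 0, 1.53 and 0 FPKM, without overlap (limma adjusted p = 0.101). Alox5 and Alox5ap, which start leukotriene synthesis in many myeloid cells, were at 56.2 and 149 FPKM in labelled-deficient replicate 3 and at most at 5.05 and 39.2 FPKM elsewhere (limma adjusted p = 0.778 and 0.996). Ptgs1, the constitutive cyclooxygenase, was at 4.54, 0.706 and 1.44 FPKM across WT against 10.6, 1.99 and 6.30 FPKM (adjusted p = 0.647). Il4 was at 0, 6.09 and 7.08 FPKM against 0, 0 and 4.27 FPKM (adjusted p = 0.774). Tnf was at 3.33, 11.4 and 6.61 FPKM against 5.83, 1.95 and 10.4 FPKM (adjusted p = 0.961).

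**Figure D5:**
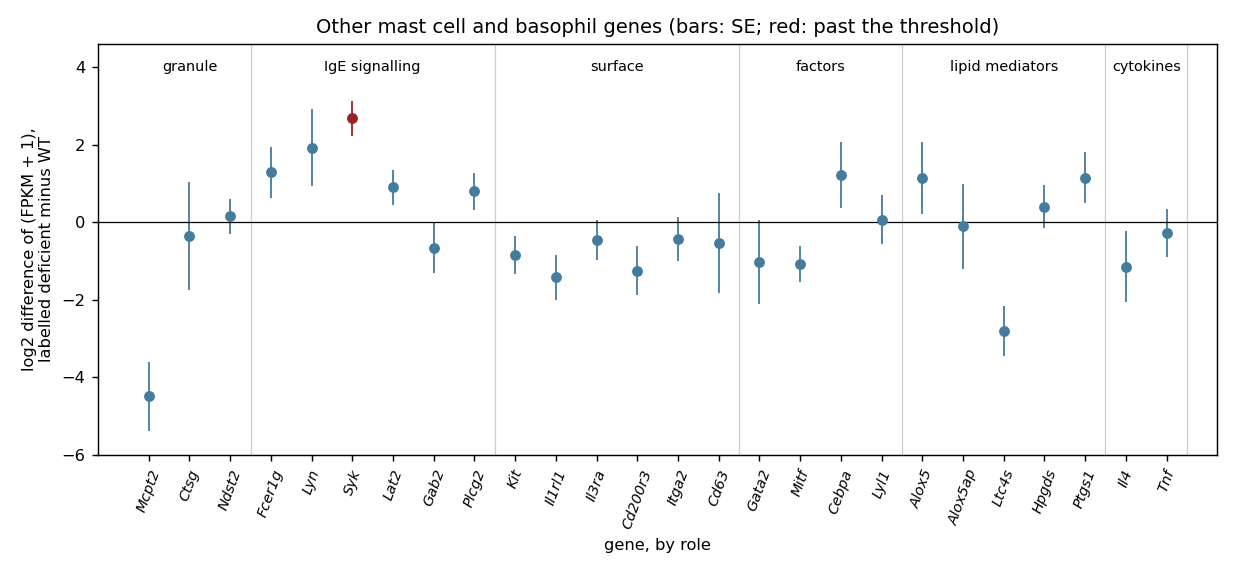
Log2 difference of FPKM + 1, labelled deficient minus WT, for the 26 tested genes of the wider list, by role, with SE bars. Syk, at 2.68, is the only gene past the threshold, and the bar of Mcpt2, listed at 0 in 3 libraries, depends on the pseudocount.

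Markers of other cells moved with parts of these results. Stromal, endothelial and epithelial markers (14 genes) summed to 332, 110 and 426 FPKM across WT and to 143, 106 and 52.2 FPKM under the deficient label, and WT replicate 2, the lowest WT library in mast cell proteases, was also the lowest WT library in them. Their parts moved apart: 7 fibroblast and mural genes summed to 305, 83.2 and 405 FPKM across WT against 80.9, 55.1 and 18.4 FPKM, and 7 endothelial and epithelial genes to 26.9, 26.6 and 20.4 FPKM against 61.8, 51.1 and 33.8 FPKM. Most of the second sum was Pecam1, at 21.7, 21.1 and 17.3 FPKM across WT against 39.2, 39.9 and 30.0 FPKM. That sum therefore largely follows this 1 gene and is no measure of endothelial or epithelial cells. Kdr, another endothelial gene, was at 0.261, 2.70 and 0.188 FPKM across WT against 1.20, 1.53 and 0.175 FPKM. Krt8, which shares a locus with another gene, reached 15.8 FPKM in labelled-deficient replicate 1. Without overlap, 2 of the first 7 were lower (Pdgfra and Pdgfrb), beside 6.56% of all genes tested. Higher without overlap were 2 of the second 7 (Pecam1 and Cdh5), beside 8.67%. The other 5 of each part overlapped between the groups. Cdh5 was near the floor, at 0 to 0.185 FPKM across WT against 0.388 to 1.99 FPKM, and Pdgfra shares a locus with another gene. Dcn, a matrix gene of fibroblasts, was at 97.4, 27.0 and 212 FPKM against 34.5, 25.5 and 8.64 FPKM. The split of the list was made after its values were seen. The part of these markers in the mast cell result was not tested. In labelled-deficient replicate 3 the high basophil genes stood beside high granulocyte genes: the eosinophil genes Prg2 and Epx were at 1242 and 68.6 FPKM there and at no more than 25.5 and 3.83 FPKM elsewhere, and Mpo was at 589 FPKM against 53.7 to 257 FPKM. S100a8 and Cxcr2 were highest in WT replicate 3, at 30.8 and 2.35 FPKM against 22.9 and 0.650 FPKM in labelled-deficient replicate 3. Camp was highest in WT replicate 2, at 5.85 FPKM against 2.26 FPKM in labelled-deficient replicate 3. Of the 14 granulocyte markers, 0 were listed at 0 in labelled-deficient replicate 3 and 1 to 7 in the others. By the deposited bounds that replicate was also the deepest library (about 4.34e+06 fragments). The most zeros, 7 and 6, fell in the shallowest, labelled-deficient replicate 1 (1.51e+06) and WT replicate 1 (1.42e+06), so nothing is read from this count. The part of the granulocyte markers in the basophil values was not tested. Markers of group 2 innate lymphoid cells, which share Il1rl1 and Il13 with mast cells, summed to 71.2 to 120 FPKM across WT and 24.3 to 49.0 FPKM under the deficient label, lowest in replicate 3. Il5, a defining cytokine of those cells, was listed at 0 in 5 of the 6 libraries. Gata3, a T-lineage marker too, was in the innate lymphoid sum at 61.1, 27.9 and 56.9 FPKM across WT against 28.7, 17.5 and 4.07 FPKM. Its groups overlapped.

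Likeness of pattern was measured as the root mean square difference of centred log2(FPKM + 1) values over the 6 libraries, among 7089 genes with a mean of at least 5 FPKM. Nearest to Cpa3 were Jchain (0.72), Eif2a (0.80), Rab26os (0.81), BC068281 (0.82) and Ctla2a (0.87). Jchain, the joining chain of secreted immunoglobulin, was at 35.9, 25.7 and 240 FPKM across WT against 0, 0.148 and 9.72 FPKM. Nearest to Mcpt8 were Mmab (0.34), Tomm20 (0.35), Mrps21 (0.55), Elane (0.55) and Cenph (0.59). Tomm20, a mitochondrial import receptor found in all cells, was at 8.40, 11.5 and 136 FPKM against 8.35, 10.4 and 82.1 FPKM, so replicate 3 of each group was also high in a gene of all cells. These distances rest on 6 libraries and carry no test.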

How the data were processed

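Gene expression was measured by RNA-seq of total RNA in 6 libraries. The build mm9 and the tools TopHat2 2.1.1, featureCounts 2.0.1 and Trimmomatic 0.38 are named, with no role stated, per the submitters' processing notes. Per the file headers, the deposited values are FPKM per locus with bounds below and above, in the layout of a Cufflinks gene table. Annotation and strand use are, in the sources used here, not given. Read counts were not used, so depth comes only from the bounds.

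Tables were joined on gene symbol, and symbols sharing a locus were joined into 1 unit with summed FPKM. Genes at 1 FPKM or more in at least 3 libraries (11063) were fitted as log2(FPKM + 1) with limma 3.58.1 in R 4.3.3 (group only, mean-variance trend, robust empirical Bayes), Benjamini-Hochberg adjusted over all genes, threshold 0.05. This scale understates changes of low genes. P-values rest on the spread between libraries of a group, some of which may be technical. The script was tested on simulated data. Python 3.11.15 and pandas 2.3.3 were used.

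The 10 genes and the lists were chosen with earlier results of these data known. One listed marker is not reported here. Named genes are the 10, from the 43 those past the threshold and the 2 with the smallest adjusted p per role, and the 5 nearest in pattern to Cpa3 and Mcpt8. Others of the 43 that are named were chosen after their values were seen. Alternatives were other pseudocounts, filters, scalings, plain empirical Bayes, unjoined symbols, a replicate block and leaving out each library.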

Additional observations from a re-analysis of the deposited data

How the results depend on the processing

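Across all genes, limma called 83 (71 higher, 12 lower). The number was 53 with a pseudocount of 0.1, 55 with plain empirical Bayes, 37 with totals taken without loci over 10000 FPKM, and 0 without a filter (1181 at an unadjusted p under 0.05). With a replicate block it was 2. Leaving out each library gave 0 to 58 (877 to 1179 at an unadjusted p under 0.05): 0 when WT replicate 1 or labelled-deficient replicate 1 or 2 was left out, 4 when WT replicate 2 was and 45 when labelled-deficient replicate 3 was. Of the wider list, 1 gene was called, 2 with a pseudocount of 0.1, 0 without a filter, under quantile normalization, with plain empirical Bayes or with the replicate block, and 0 to 1 leaving out a library. With totals taken without loci over 10000 FPKM and without WT replicate 2, the 1 gene called was Mcpt2 and not Syk.

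The replicate numbers pair the libraries only by number: deviations from the group means correlated at 0.084, 0.182 and 0.174 between same-numbered libraries, and each library correlated best with its own number, a hint from the data and not the design.

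The median log2 difference of the 10 genes' tested members was below 0 in every setting run, from -2.33 (pseudocount of 0.1) to -0.49 (pseudocount of 5), and from -1.94 to -0.42 leaving out a library. With 5 FPKM in 3 libraries it rests on 2 genes. The sign turned for Hdc with a pseudocount of 5 (0.12). Leaving out a library, differences ran from -1.82 to 0.43 for Mcpt8, -0.071 to 3.36 for Prss34, -0.94 to 1.36 for Ms4a2, -1.54 to 0.61 for Hdc and -0.72 to 0.25 for Tnf. Those of Tpsb2, Cma1, Mcpt4 and Cpa3 stayed below 0 in every setting that tested them. Their groups did not overlap, so neither a pseudocount nor leaving out a library could turn the sign. Nothing is read from this. Causes were not tested. Values resting on a few fragments, chiefly in labelled-deficient replicate 1, limit what can be read from zeros.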
